A study of Mus musculus with 2 samples.

Results

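The septin genes Sept2, Sept3, Sept4, Sept5, Sept6, Sept7, Sept8, Sept9 and Sept11 were followed in long-read RNA sequencing of the mouse hippocampus. They were chosen by gene symbol, with every transcript model filed under a symbol counted, and all 9 had reads in both libraries, among 18575 annotated genes detected in all. The tissue came from C57BL/6 mice (B6NCrl), adult at 6 months of age and labelled male although the field for sex holds no value. There is 1 group of 2 libraries, replicate 1 and replicate 2, with no second condition. No allele or treatment is labelled. Each library has its own biosample and both share a donor identifier, so whether they came from separate animals is not known, and differences between them may be technical. P-values of Fisher's exact test hold no estimate of the spread between libraries and cover counting error only. Replicate 1 held 1330153 reads and replicate 2 held 1366252, of which 1851 and 2062 were septin reads.

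Septins are GTP-binding cytoskeletal proteins. They assemble into rods that hold subunits from different sequence groups, and the rods join end to end into filaments, rings and gauzes on membranes and on actin or microtubules. In the brain they are known from the base of dendritic spines and dendritic branch points, from presynaptic terminals, where SEPT5 binds syntaxin, and from myelin, where filaments of SEPT2, SEPT4, SEPT7 and SEPT8 line the innermost layer in the mouse. Mammalian septins fall into 4 sequence groups: SEPT7 alone, the SEPT2 group (here Sept2, Sept4 and Sept5), the SEPT6 group (Sept6, Sept8 and Sept11) and the SEPT3 group (Sept3 and Sept9).

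Levels are given in CPM, reads per 1000000 reads of the library. A long read stands for 1 transcript whatever its length, and levels per kb of the mean model length are given beside CPM where genes are compared. Intervals are exact Clopper-Pearson 95% intervals, and they cover counting error only. In a bulk sample, fewer cells of a type and less RNA per cell cannot be told apart. Markers of dentate gyrus, CA1, CA2 and CA3 neurons were detected for all 4 fields, with 3 of 3 genes each. The libraries differed in other tissue: 5 choroid plexus markers summed to 13898 CPM in replicate 1 but 311 CPM in replicate 2, and 3 meningeal markers to 1195 and 2855 CPM. Ptgds alone, the 1 meningeal marker called, had 1073 and 2680 CPM.

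Sept7 was the most abundant septin. It had 571 CPM (531 to 613, 759 reads) in replicate 1 and 608 CPM (568 to 651, 831 reads) in replicate 2, a mean of 589 ± 26.6 CPM (SD, n = 2) that placed it 213th among all detected genes. Sept7 alone took 41.0% of septin reads in replicate 1 and 40.3% in replicate 2. The 3 genes of the SEPT2 group together took 26.9% and 25.5%, those of the SEPT6 group 22.0% and 24.7%, and those of the SEPT3 group 10.1% and 9.51%. All 9 genes together held 1392 CPM in replicate 1 and 1509 CPM in replicate 2.

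Below Sept7 the septins came in pairs whose library values overlapped. Sept4, a glial and neuronal septin found in myelin, had 204 CPM (271 reads) in replicate 1 and 264 CPM (361 reads) in replicate 2. Sept8, which binds the vesicle protein VAMP2 and is also a myelin septin, had 184 and 245 CPM. Sept2, a subunit of the canonical filament that binds non-muscle myosin, had 138 and 81.2 CPM. Sept3, a neuronal septin of presynaptic terminals, had 108 and 105 CPM. These 2 pairs were separated from each other and from Sept7: no library value of a higher pair fell to that of the next.

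Sept6, a filament subunit closely related to Sept8 and Sept11, had 56.4 CPM (75 reads) in replicate 1 and 72.5 CPM (99 reads) in replicate 2. Sept11, a septin found at GABAergic synapses, had 66.2 and 54.9 CPM. Sept9, which bundles microtubules and actin, had 33.1 and 38.8 CPM. Sept5, the presynaptic septin that binds syntaxin, had 31.6 and 39.5 CPM. Neither Sept6 and Sept11 nor Sept9 and Sept5 could be ordered, since their library values overlapped. Per kb of the mean model length, Sept7 stood at 351 CPM per kb, Sept4 at 149 and Sept8 at 90.5. The other 6 lay between 10.8 for Sept5 and 50.7 for Sept2, and the order was the same as in CPM except that Sept11, at 26.9, stood above Sept6, at 26.3.

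**Figure D1:**
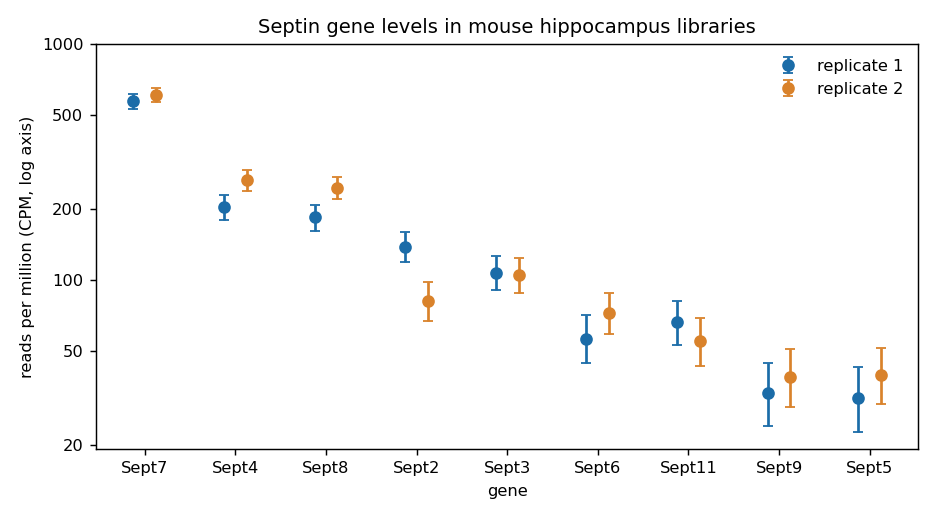
Level in CPM (log axis) of the 9 septin genes in replicate 1 (left point) and replicate 2 (right point), ordered by mean level, with exact 95% intervals for counting error. Sept7 lies at 571 and 608 CPM, above every other septin, and Sept9 and Sept5 lie lowest, between 31.6 and 39.5 CPM.

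The order changed when unspliced reads were left out: Sept2 moved to the end, and Sept5 came above Sept9, from which all reads had not separated it. Of the reads of Sept2, 166 of 184 in replicate 1 (90.2%, 85.0 to 94.1) and 91 of 111 in replicate 2 (82.0%, 73.6 to 88.6) were unspliced. All of them lay on 1 single-exon model at chr1:93507713-93509733 (mm10, plus strand), inside the annotated last exon and beyond the coding sequence. Spliced Sept2 reads numbered 18 and 20, or 17.9 and 18.2 CPM of the spliced reads, the lowest of the 9 genes. By the mean CPM of spliced reads alone the order was Sept7, Sept4, Sept8, Sept3, Sept6, Sept11, Sept5, Sept9 and Sept2. The library values of Sept4 and Sept8 overlapped. So did those of Sept3 and Sept6, which were level in replicate 2 with 95 spliced reads each.

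The annotation files Sept2 under 2 overlapping gene identifiers, whose reads were summed here. ENSMUSG00000026276.20 had 11 reads in replicate 1 and 18 in replicate 2, and ENSMUSG00000116048.1 had 173 and 93. The annotated transcript Sept2-201, with 13 exons, had 7 and 17 reads. How the reads of the last exon were shared between the identifiers is therefore uncertain, while the sum is not affected.

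The interval of unspliced Sept2 reads also held an antisense locus with the same start and end. It had 339 unspliced reads in replicate 1 and 179 in replicate 2, so that 67.1% (62.8 to 71.2) and 66.3% (60.3 to 71.9) of the unspliced reads there were on the minus strand. Antisense loci over Sept2 as a whole had 256 and 131 CPM, a log2 ratio of 0.96 (0.70 to 1.23). Antisense loci over Sept11 had 48 and 19 reads, and those over Sept3 had 41 and 12. Over the remaining 6 septins they had at most 4 reads in a library, and none over Sept4, Sept5 and Sept8. Antisense loci took 5.34% of all reads in replicate 1 and 3.02% in replicate 2. No source used here gives the strand setting of the library preparation, so sense and antisense reads over these exons cannot be told apart with certainty.

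Unspliced reads varied widely among the other septins. Sept4 had 0 of 271 and 0 of 361 unspliced reads, and Sept5 had 0 of 42 and 0 of 54. Sept3 stood high, with 62 of 143 (43.4%) in replicate 1 and 48 of 143 (33.6%) in replicate 2, and so did Sept9, with 17 of 44 (38.6%) and 21 of 53 (39.6%). Sept11 had 20.5% and 18.7%, Sept8 13.1% and 8.06%, Sept6 5.33% and 4.04%, and Sept7 3.16% and 3.13%. Over 6859 multi-exon genes that reached 20 reads in both libraries, the median share was 6.78% in replicate 1 and 5.33% in replicate 2. With the reads of these genes pooled, the share was 12.0% in replicate 1 and 9.20% in replicate 2. The unspliced models with 3 or more reads lay inside a single annotated exon in each of these genes, and those of Sept7, Sept6, Sept8, Sept9 and Sept11 reached into coding sequence, as did most of Sept3. By Fisher's exact test (two-sided, Benjamini-Hochberg adjusted over the 6859 genes), 0 of the 9 shares were called different, against 1.44% of all genes (1.25% higher in replicate 1). With Fisher's exact test at an unadjusted p under 0.05 there was 1, Sept2 (p = 0.0487, adjusted p = 0.673).

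Between the libraries, 3 of the 9 septins differed in reads. Sept2 was higher in replicate 1, and Sept4 and Sept8 were higher in replicate 2. The test was Fisher's exact test, two-sided, of the reads of a gene against all others in each library, adjusted over 11885 genes with at least 10 reads, of which 5.95% were called (2.57% higher in replicate 1 and 3.38% higher in replicate 2). It compares these libraries and not conditions. Sept2, with 184 and 111 reads, had a log2 ratio of replicate 1 over replicate 2 of 0.77 (0.42 to 1.12, adjusted p = 0.000418 by Fisher's exact test). Sept4, with 271 and 361 reads, had a log2 ratio of -0.38 (-0.61 to -0.14, adjusted p = 0.0266 by Fisher's exact test). Sept8, with 245 and 335 reads, had a log2 ratio of -0.41 (-0.66 to -0.17, adjusted p = 0.0156 by Fisher's exact test). For the other 6 the log2 ratios ran from -0.36 for Sept6 to 0.27 for Sept11, and every interval included 0. The median log2 ratio was -0.23 over the 9 septins and -0.05 over all genes tested.

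Most Sept2 reads were unspliced, and the wide interval from its 18 and 20 spliced reads includes the ratio of all its reads. Among spliced reads alone its log2 ratio was -0.02 (-1.02 to 0.97), that of Sept4 was -0.28 (adjusted p = 0.193 by Fisher's exact test) and that of Sept8 was -0.40 (adjusted p = 0.0474 by Fisher's exact test), so that Sept8 alone was still called. With edgeR's exact test and the dispersion between these same libraries, 0 of the 9 were called. Sept4 and Sept8 were higher in replicate 2, as were sums of markers of several cell types, though not of all. Oligodendrocyte markers summed to 5181 CPM in replicate 1 but 6962 CPM in replicate 2. Of those 6 markers, 3 were called higher in replicate 2, none was at 0 and Mog was lower in replicate 2 without being called. Neuron markers summed to 3781 and 4649 CPM, with 3 of 4 called higher in replicate 2. Those of microglia (3 genes, none called) summed to 359 and 452 CPM, those of endothelium (2 genes, 1 called) to 253 and 338 CPM, those of CA1 (3 genes, none called) to 244 and 306 CPM and those of the dentate gyrus (3 genes, 1 called) to 565 and 700 CPM. CA2 markers (3 genes, none called) ran the other way, with 248 CPM for replicate 1 against 225 for replicate 2. So did the choroid plexus sum given above. CA3 markers (3 genes, none called) were near level, with 302 against 310 CPM. The astrocyte sum (4 genes) was 2782 against 3050 CPM, with Aldoc called higher in replicate 2 but Slc1a2 called higher in replicate 1. The part of these markers in the result was not tested.

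**Figure D2:**
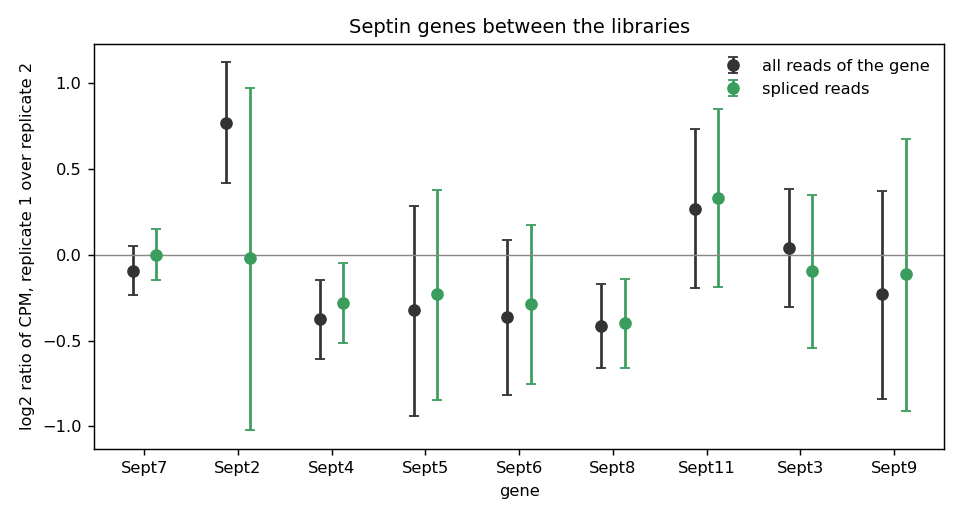
Log2 ratio of CPM, replicate 1 over replicate 2, of each septin gene, from all reads of the gene (black, left) and from spliced reads (green, right), with exact 95% intervals for counting error. Sept2 lies at 0.77 by all reads and at -0.02 by spliced reads, while Sept8 lies at -0.41 and -0.40.

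The reads of each septin were divided by transcript class. TALON is the program that assigned reads to models. It calls a model annotated, an incomplete match to a longer transcript (ISM) or an unannotated combination of annotated splice sites (NIC). The other classes are a model with an unannotated site (NNC) and genomic. The longer transcript of an ISM model need not be annotated. A Sept7 chain of 12 exons was ISM in replicate 1 (210 reads), yet shared 10 of 11 junctions with Sept7-202, the nearest annotated transcript. Annotated transcripts took 23.4% (21.5 to 25.4) of septin reads in replicate 1 and 26.5% (24.6 to 28.5) in replicate 2, against 70.4% and 72.6% over all annotated genes. Unannotated spliced models, NIC and NNC together, took 22.9% and 39.4% of septin reads, against 6.16% and 6.59% over all. No test was made of this, and Sept7 carries much of the sum. Without Sept7, annotated transcripts took 39.6% (36.6 to 42.5) of septin reads in replicate 1 and 44.4% (41.6 to 47.3) in replicate 2, and the unannotated spliced share was 19.0% in replicate 1 and 22.5% in replicate 2.

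**Figure D3:**
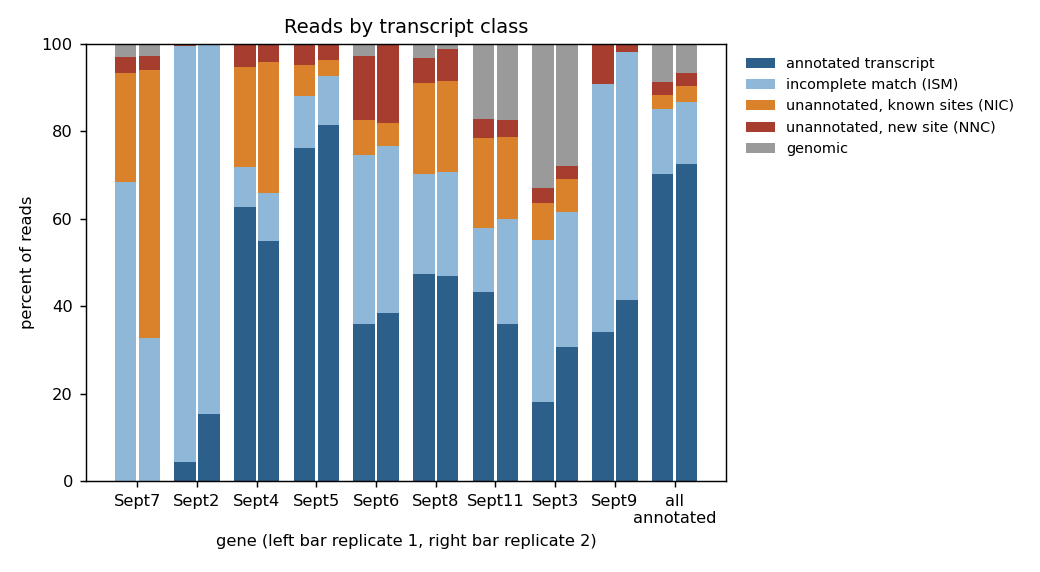
Percent of reads of each septin gene in each transcript class, with replicate 1 as the left bar and replicate 2 as the right bar of each pair, and all annotated genes at the right. Sept7 has almost no annotated reads, and its unannotated share is 28.6% in replicate 1 and 64.4% in replicate 2, while over the other 8 septins together it is 19.0% and 22.5%.

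Sept7, the core subunit with no other member in its group (chr9:25252439-25308571, plus strand), had almost no read on an annotated transcript: 1 of 759 in replicate 1, on a single-exon retained-intron transcript, and 0 of 831 in replicate 2. The models differ from the annotated coding transcripts at a short exon. Both full-length annotated coding transcripts, Sept7-201 and Sept7-202, have 14 exons, and their exon 2 is 5 bases long, at chr9:25265302-25265306 in Sept7-201 and at chr9:25264203-25264207 in Sept7-202. The deposited models joined exon 1, which ends at 25252699, straight to exon 3, which starts at 25265394. This junction had 621 reads in replicate 1 and 701 in replicate 2, and a model with either short exon had 0 and 0. The exact upper limits are 0.592% and 0.525%, and 3 reads would be 0.483% and 0.428%. The junction is printed below in its annotated forms and as the models have it, 24 bases on either side, 5′ to 3′ and on the plus strand, with the short exon in capitals.
Sept7-201: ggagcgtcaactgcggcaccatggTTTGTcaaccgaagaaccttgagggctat
Sept7-202: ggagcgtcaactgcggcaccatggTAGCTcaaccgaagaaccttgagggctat
Sept7 deposited junction: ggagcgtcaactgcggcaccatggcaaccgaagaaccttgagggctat

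The 5 bases lie in the coding sequence. From the annotated start codon the reading frame runs for 437 codons in both annotated transcripts, and for 25 codons when the short exon is left out of them. Without the short exon the longest frame that opens with ATG has 384 codons, and its ATG lies 94 bases after the end of exon 1. The deposited files hold models and counts but no read sequence, so whether the reads themselves carry the 5 bases was not tested. Annotated internal exons of this size behaved alike over all genes, with the short exons of Sept7 counted among them. Of 36 exons of 1 to 10 bases with at least 20 reads across them, 35 (97.2%) had no read on a model that includes them. Among exons of 11 to 20 bases 33 of 69 had none, among those of 21 to 30 bases 29 of 397, and among longer exons of 31 to 50 bases 91 of 2429.

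The splice chains of Sept7 that start at exon 1 differed mainly in where they stop. The chain that goes on to the annotated last exon had 13 exons, with 170 reads in replicate 1 and 260 in replicate 2. A chain that ends in exon 13 of Sept7-202, at the end of that exon (25306265), had 12 exons and 210 and 215 reads. A chain of 11 exons stopped in exon 12, with 91 and 85 reads on models that run past the annotated exon end to 25304067, the annotated end of the retained-intron transcript Sept7-203. A chain of 10 exons stopped at the end of exon 11 (25301537), with 85 and 77 reads. Of the reads that join exon 1 to exon 3, 28.7% in replicate 1 and 37.8% in replicate 2 were on chains that reach the last exon, 34.8% and 32.7% stopped in exon 13, 15.3% and 12.4% in exon 12, and 14.5% and 11.3% in exon 11. The ends are those of the deposited models, most of which fall on annotated ends, and need not be the ends of the reads.

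**Figure D4:**
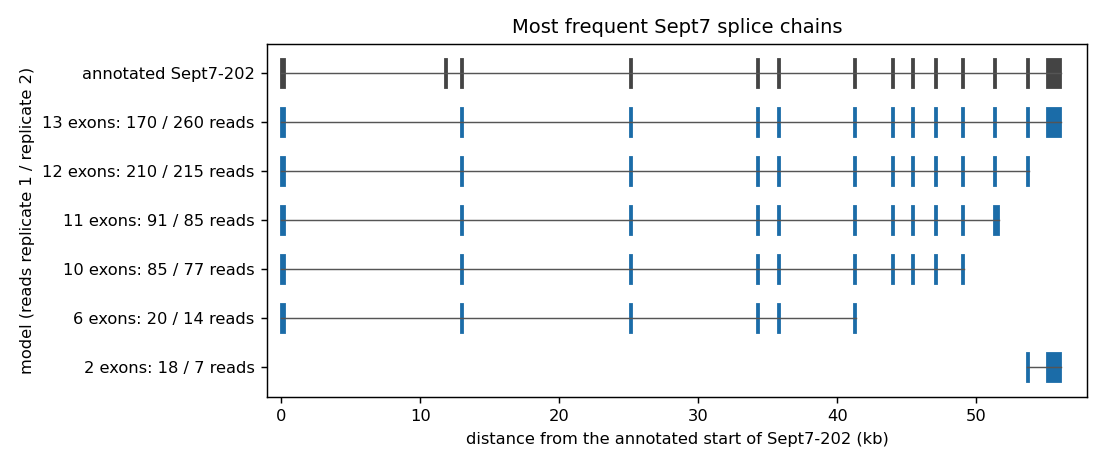
The 6 most frequent Sept7 splice chains (blue) under the annotated transcript Sept7-202 (grey), by distance from its annotated start in kb, with reads of replicate 1 and replicate 2 at the left. Boxes are exons, drawn at least 0.15 kb wide so that short ones can be seen. The first 5 chains share exon 1 and lack the short exon of Sept7-202, and they stop at different exons toward the right.

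Over both libraries together the chain of 13 exons had the most Sept7 reads, although the chain of 12 exons had more in replicate 1. The share of the 13-exon chain among non-genomic reads was 23.1% (20.1 to 26.3) in replicate 1 and 32.2% (29.0 to 35.5) in replicate 2. Sept7 was the 1 septin of 9 whose leading model differed in share between the libraries (adjusted p = 0.00381, two-sided Fisher's exact test), where 3.30% of 6000 genes did. The unannotated share of Sept7, over all its chains, differed more, and most of that lay in the class given to 1 chain. The chain of 12 exons was classed as an incomplete match in replicate 1 (210 reads) and as an unannotated combination in replicate 2 (215 reads). With 1 class for each chain in both libraries, the unannotated share of Sept7 was 57.4% in replicate 1 and 64.4% in replicate 2. Of 137 splice chains of septin genes found in both libraries, 12 (8.76%) carried different classes, and over all annotated genes 1676 of 50940 (3.29%) did.

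Sept4 (chr11:87568903-87590539, plus strand) showed choices at its start, at exon 2 and near its end. Its leading transcript Sept4-205, with a coding sequence of 459 codons, had 149 of 271 reads (55.0%, 48.8 to 61.0) in replicate 1 and 162 of 361 (44.9%, 39.7 to 50.2) in replicate 2, which was not called (adjusted p = 0.215, Fisher's exact test). At the start of exon 2, the upstream first exon of Sept4-205 was joined in 189 of 220 reads (85.9%) in replicate 1 and in 222 of 261 (85.1%) in replicate 2. The downstream first exon of Sept4-201 had 18 (8.18%) and 26 (9.96%). These first exons start about the RefSeq transcript starts at 87578389 and 87581061.

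The 250 bases before each of these RefSeq starts are printed because they precede the 2 first exons that the reads told apart. They are given 5′ to 3′ on the plus strand of GRCm38.p6, at chr11:87578139-87578388 and chr11:87580811-87581060, with each CG in capitals.
Sept4 upstream first exon: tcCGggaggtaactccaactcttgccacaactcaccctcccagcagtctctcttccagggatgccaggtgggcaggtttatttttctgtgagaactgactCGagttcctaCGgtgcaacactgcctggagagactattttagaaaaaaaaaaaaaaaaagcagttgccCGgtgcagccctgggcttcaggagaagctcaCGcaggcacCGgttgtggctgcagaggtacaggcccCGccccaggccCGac
Sept4 downstream first exon: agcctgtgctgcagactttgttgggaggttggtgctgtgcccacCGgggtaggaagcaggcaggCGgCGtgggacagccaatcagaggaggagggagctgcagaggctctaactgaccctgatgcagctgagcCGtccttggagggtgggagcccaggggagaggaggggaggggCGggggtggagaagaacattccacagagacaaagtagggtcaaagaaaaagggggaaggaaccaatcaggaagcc
The upstream window held 8 CG and was 55.2% G or C, and the downstream window held 5 CG and was 60.8% G or C. Over all 32851 RefSeq promoter windows of this length, 92.1% held at least 1 CG, the median was 6 CG and the median G and C content was 52.4%. A TATAAA on either strand, found in 12.4% of all windows, was in neither. RefSeq gave 15 windows for 6 of the 9 septins, which reached 36 CG in windows of Septin7 and Septin8, and none of the 15 held TATAAA.

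Exon 2 of Sept4 was a cassette. From the upstream first exon, 189 of 221 reads (85.5%, 80.2 to 89.9) in replicate 1 and 222 of 280 (79.3%, 74.1 to 83.9) in replicate 2 went to exon 2, and 29 (13.1%) and 56 (20.0%) skipped it. On annotated transcripts alone the skip rested on Sept4-206, with 5 reads in replicate 1 and 10 in replicate 2, against 149 and 162 for Sept4-205. Near the 3′ end, a late exon began at either of 2 acceptors that lie 53 bases apart. The upstream one, at 87589956, had 217 of 263 reads (82.5%) in replicate 1 and 283 of 346 (81.8%) in replicate 2, and the downstream one had 46 (17.5%) and 63 (18.2%). On annotated transcripts alone the mean share of the downstream acceptor was 6.39%, against 17.8% over all models. The intervals of both libraries overlapped at each of these sites. The 53 bases are coding in Sept4-205 and shift the frame, since 53 is not a multiple of 3. They are printed in capitals with 24 bases of transcript on either side, plus strand, chr11:87589956-87590008.
Sept4-205: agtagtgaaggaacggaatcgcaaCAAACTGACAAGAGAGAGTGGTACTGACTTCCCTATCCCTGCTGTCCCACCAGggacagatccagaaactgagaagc
Sept4-206: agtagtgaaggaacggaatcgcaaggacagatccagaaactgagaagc

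The choices of Sept4 were combined in ways the annotation does not hold. Its most frequent unannotated model, with 20 reads in replicate 1 and 40 in replicate 2, had the upstream first exon, skipped exon 2 and used the upstream acceptor, while the annotated Sept4-206 skips exon 2 and uses the downstream one. The next, with 27 and 31 reads, kept exon 2 with the upstream first exon and used the downstream acceptor. Unannotated spliced models took 28.0% of Sept4 reads in replicate 1 and 34.1% in replicate 2.

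Sept8 (chr11:53519257-53549565, plus strand) was split among last exons and by a tandem acceptor. Its leading transcript Sept8-204, of 484 codons, had 63 of 237 non-genomic reads (26.6%, 21.1 to 32.7) in replicate 1 and 91 of 331 (27.5%, 22.8 to 32.6) in replicate 2. The most frequent unannotated model, with 38 (16.03%) and 57 (17.2%) reads, was Sept8-204 with the other acceptor of a pair at its tandem site. Sept8-207 had 32 (13.5%) and 33 (9.97%). Acceptors at 53534949 and 53534955 follow 1 donor. The upstream one had 119 of 186 reads (64.0%, 56.6 to 70.9) in replicate 1 and 171 of 273 (62.6%, 56.6 to 68.4) in replicate 2. The downstream one, annotated in Sept8-203, had 67 (36.02%) and 102 (37.4%), and the intervals of the libraries overlapped. On annotated transcripts alone the mean share of the downstream acceptor was 12.4%, against 36.7% over all models. The 6 bases between them, coding and in frame, are in capitals below, plus strand, chr11:53534949-53534954.
Sept8-204: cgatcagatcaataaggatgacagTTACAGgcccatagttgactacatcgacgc
Sept8-203: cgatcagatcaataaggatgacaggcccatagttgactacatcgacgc

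The donor at 53537915 led to 4 last exons or acceptors of Sept8. The last exon of Sept8-204 took 125 of 207 reads (60.4%, 53.4 to 67.1) in replicate 1 and 199 of 296 (67.2%, 61.6 to 72.5) in replicate 2. That of Sept8-203 and Sept8-207, whose coding sequences have 440 and 442 codons, took 52 (25.1%) and 59 (19.9%). That of Sept8-201, of 429 codons, took 12 (5.80%) and 18 (6.08%). An unannotated acceptor 3 bases inside the last exon of Sept8-204, at 53548294, took 17 (8.21%) and 20 (6.76%). The order of the 4 was the same in both libraries.

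Sept11 (chr5:93093437-93176447, plus strand) also had a tandem acceptor, 3 bases wide. From the donor at 93167687, the acceptor at 93173470 had 14 of 42 reads (33.3%, 19.6 to 49.5) in replicate 1 and 17 of 40 (42.5%, 27.0 to 59.1) in replicate 2. The acceptor at 93173473 had 21 (50%, 34.2 to 65.8) and 16 (40.0%, 24.9 to 56.7), so neither was the more frequent in both libraries. On annotated transcripts alone the first rested on Sept11-207, with 1 read in replicate 1 and 2 in replicate 2. The second rested on Sept11-203, with 17 and 10. The 3 coding bases are in capitals below, plus strand, chr5:93173470-93173472.
Sept11-207: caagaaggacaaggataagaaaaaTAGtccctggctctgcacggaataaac
Sept11-203: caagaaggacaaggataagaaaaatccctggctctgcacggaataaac

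The leading models of Sept11 were Sept11-205, of 425 codons and 9 exons, which ends upstream of these exons, with 18 of 73 non-genomic reads (24.7%) in replicate 1 and 10 of 62 (16.1%) in replicate 2, and Sept11-203, with 17 (23.3%) and 10 (16.1%). The most frequent unannotated model, with 10 and 8 reads, joined the upstream acceptor of Sept11-207 to the last exon of Sept11-203. After the tandem exon, the last exon of Sept11-203 took 31 of 35 reads (88.6%) in replicate 1 and 28 of 33 (84.8%) in replicate 2.

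Sept6 (chrX:36911326-36991794, minus strand) held an unannotated donor that took a like share in both libraries. A donor 27 bases inside an annotated coding exon had 10 of 61 reads (16.4%, 8.15 to 28.1) in replicate 1 and 14 of 83 (16.9%, 9.54 to 26.7) in replicate 2, and the annotated donor had the other 51 and 69. The 27 bases, a multiple of 3, are in capitals below as Sept6-202 has them, 5′ to 3′ on the minus strand, chrX:36942055-36942081.
Sept6-202: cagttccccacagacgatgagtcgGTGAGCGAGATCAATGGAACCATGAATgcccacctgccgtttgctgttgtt
Sept6 unannotated donor: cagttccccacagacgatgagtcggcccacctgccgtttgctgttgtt

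The most frequent model with this donor, otherwise as Sept6-202, had 6 reads in replicate 1 and 11 in replicate 2. Sept6-202 itself, of 429 codons, led with 24 of 73 non-genomic reads (32.9%) in replicate 1 and 31 of 99 (31.3%) in replicate 2, and an 8-exon chain that stops early had 7 (9.59%) and 13 (13.1%). Its last exon was used in 44 of 51 reads (86.3%) and 53 of 68 (77.9%) from the preceding donor, while the route to the exon of Sept6-201 had 6 (11.8%) and 12 (17.6%).

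Sept3 (chr15:82274893-82294574, plus strand) used 2 first exons about equally. The first exon of Sept3-202 had 20 of 47 reads (42.6%, 28.3 to 57.8) in replicate 1 and 35 of 62 (56.5%, 43.3 to 69.0) in replicate 2, and that of Sept3-201 had 27 (57.4%) and 27 (43.5%). Both transcripts have coding sequences of 337 codons. Sept3-202 as a whole had 10 of 96 non-genomic reads (10.4%) in replicate 1 and 25 of 103 (24.3%) in replicate 2, which was not called (adjusted p = 0.235, Fisher's exact test). Sept3-201 had 14 (14.6%) and 18 (17.5%), and unspliced incomplete matches had 16 (16.7%) and 8 (7.77%). The most frequent unannotated model, with 9 reads in each library, carried the first exon of Sept3-202 with a junction to 82293246, and the genomic class, outside these shares, held 32.9% and 28.0% of all Sept3 reads.

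Sept9 (chr11:117199661-117362325, plus strand) is known for long isoforms with an extended amino terminus that binds microtubules and for short isoforms without it. At the acceptor at 117351429, the junction of the long isoforms, whose coding sequences have 565 to 583 codons, had 5 of 21 reads (23.8%, 8.22 to 47.2) in replicate 1 and 0 of 24 in replicate 2, where an exact interval reaches 14.2%. The first exons of the short isoforms Sept9-203 and Sept9-204, both of 334 codons, had 9 (42.9%) and 5 (23.8%) reads in replicate 1, and 8 (33.3%) and 15 (62.5%) in replicate 2. As whole models, the unspliced one led with 17 and 21 reads, Sept9-204 had 4 and 14, and Sept9-203 had 7 and 8. With so few reads the share of Sept9-204 has intervals of 8.22 to 47.2% in replicate 1 and 40.6 to 81.2% in replicate 2, which overlap.

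Sept5 (chr16:18620502-18629954, minus strand) had no splice site with a choice and no unspliced read. Sept5-205, of 378 codons and 11 exons, took 32 of 42 reads (76.2%, 60.5 to 87.9) in replicate 1 and 44 of 54 (81.5%, 68.6 to 90.7) in replicate 2. It was the 1 annotated Sept5 transcript with reads of its own class. Its exons overlap those of Gp1bb, the gene of a platelet glycoprotein on the same strand, which was given 17 and 21 reads, and of Gm49601, given 0 and 3. The genes that overlap exons of Sept4 (Gm11492), Sept6 (Gm15008) and Sept7 (Gm48272) had 0 reads in both libraries. Of the 25-base words of the annotated Sept5 transcripts, 82.2% also occur in transcripts of other genes, so the Sept5 count depends on how such reads were assigned. For the other 8 septins that share was at most 2.35%, and at most 0.58% with other septins.

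**Figure D5:**
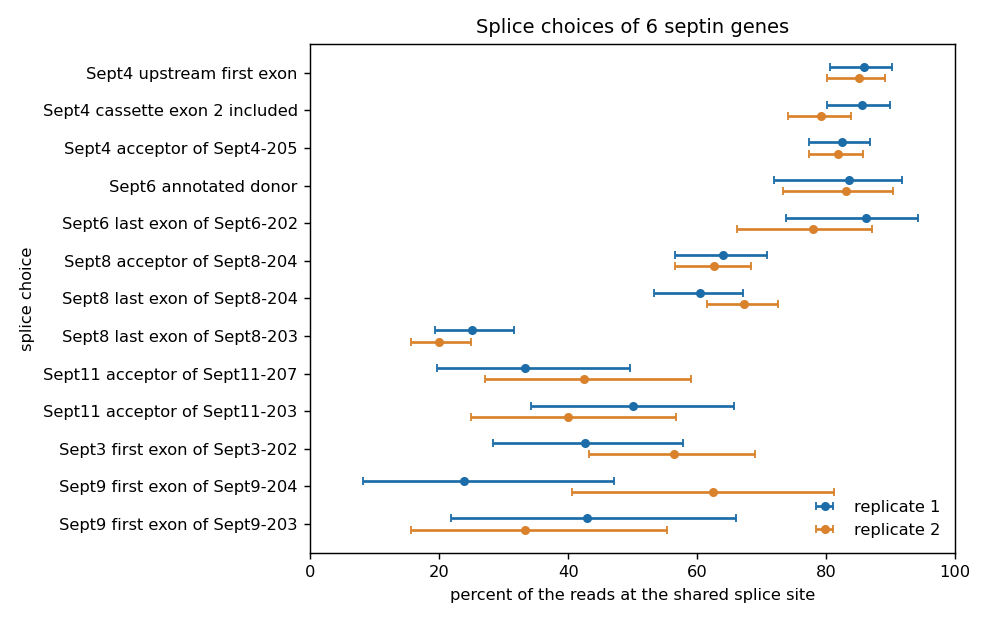
Percent of reads that took each splice choice, of all reads at the shared splice site, in replicate 1 (blue, upper) and replicate 2 (orange, lower), with exact 95% intervals for counting error. The tandem acceptor of Sept8 lies at 64.0% and 62.6%, and the intervals of the 2 libraries overlap for every choice shown.

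Across the 9 genes, 18 splice sites had at least 2 partners, each with 5% of the reads at the site and 5 reads over both libraries. Sept4 had 5 such sites, Sept6 and Sept11 4 each, Sept8 and Sept3 2 each and Sept9 1. Sept7, Sept2 and Sept5 had none by this rule. Of the 41 choices at these sites, 6 were unannotated, in Sept6, Sept8 and Sept11. Splice chains found in both libraries held 89.8% of spliced, non-genomic septin reads in replicate 1 and 88.9% in replicate 2, although they were 137 of 425 chains. These shares were not taken over all annotated genes, so whether they are usual is not known.

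Genes known to act with septins were followed as a list of 22, and 18 had enough reads to be tested. Of these, 2 were called, both higher in replicate 2, where 3.38% of all genes were, and none was called higher in replicate 1. Neither call held without genomic reads and incomplete matches, where 11 partners were tested, or by edgeR's exact test. The median log2 ratio of the 18 was -0.07, against -0.05 over all genes tested. Stx1a, the syntaxin bound by SEPT5, had 121 CPM in replicate 1 against 170 CPM in replicate 2 (log2 ratio -0.49, adjusted p = 0.0222 by Fisher's exact test). Cdc42ep2, one of the Borg proteins through which Cdc42 acts on septins, had 12.8 and 30.7 CPM, or 17 and 42 reads (log2 ratio -1.27, adjusted p = 0.0322 by Fisher's exact test).

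Stx1a and the following 3 were among the most abundant partners, and the 3 were not called. Cdc42 itself, a small GTPase, stood at 597 CPM in replicate 1 and at 642 CPM in replicate 2. Slc1a3, the astrocytic glutamate transporter, had 453 and 475 CPM, and Map4, a microtubule-associated protein, had 344 and 349 CPM. Anln, the septin-binding anillin, had 15.04 and 19.8 CPM. Among the remaining septin genes of the mouse on the list, Sept10 had 30 and 13 reads and was not called (adjusted p = 0.109, Fisher's exact test), and Sept1, Sept12 and Sept14 had 0 reads in both libraries. A floor of 3 reads, which is below an exact upper limit, is 2.26 CPM in replicate 1 and 2.20 in replicate 2.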

How the data were processed

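For each library the authors deposited whole-number counts of long reads, 1 value for every transcript model, and no normalized values. TALON made the models and their classes, per the file headers. Descriptions deposited beside the files name mm10 as build and GENCODE M21 as annotation. The aligner, platform and filters are not stated in them.

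Counts of all models of a symbol were summed, and CPM used all reads of the library, so that 1 read was worth 0.752 CPM in replicate 1 and 0.732 CPM in replicate 2. Splice chains were matched between libraries by their introns. Leading models needed 20 non-genomic reads in each library. Fisher's exact tests (SciPy 1.17.1) were adjusted by the Benjamini-Hochberg method over all features tested at 0.05. Those of gene reads and of leading model shares were also run on simulated counts. The simulated counts held no spread between libraries, so they cannot show how the tests behave with it. Counts of 0 stayed at 0 in levels and tests, and a floor of 3 reads was only stated beside them, as a share or in CPM. Normalization by TMM (edgeR 4.0.16) and by DESeq2 1.42.0 size factors, other filters and other classes were tried as alternatives. Septin sequences came from the GENCODE M21 transcripts and RefSeq promoters of GRCm38.p6.

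All members are named. Of the partners, the 5 of highest mean CPM and any called are named, with the remaining septins and Anln added after their values were seen. An item that these rules would name is not reported here. Of the models, those named are each gene's leading model, models of at least 10% of its reads and its most frequent unannotated spliced model with 2 reads in each library. The second unannotated model of Sept4 was chosen after its values were seen. The members and lists were chosen with earlier results of these data known. No likeness between genes was computed, since 2 libraries give no pattern.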

Additional observations from a re-analysis of the deposited data

How the results depend on the processing

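Sept7 held 40.7% of the summed septin level, and this was 45.7% per kb of model length, 32.4% without genomic reads and incomplete matches and 46.0% by spliced models. It was 40.3 to 41.0% with 1 library left out. The summed level of 1450 CPM became 1037, 1591 and 1587 CPM without genomic reads and incomplete matches, by spliced models and over reads on nuclear annotated genes, and 1392 to 1509 CPM with 1 library left out. Septin genes called numbered 3, and 2 (Sept2 and Sept8) with TMM or DESeq2 size factors. They numbered 1 by spliced models (Sept8) and 1 without genomic reads and incomplete matches (Sept7). By edgeR's exact test with a dispersion from these libraries, which called 45 of 11885 genes, they numbered 0. Leaving out incomplete matches removed a Sept7 chain in replicate 1 (210 reads) but not in replicate 2 (215 reads). The part of this chain, classed differently in each library, in the Sept7 call was not tested. Without being called, the log2 ratio of Sept2 changed sign to -0.84 without genomic reads and incomplete matches (adjusted p = 0.558, Fisher's exact test). By spliced models it was -0.019 (-1.02 to 0.97), also not called. For the identifier ENSMUSG00000026276.20, with 11 and 18 reads, it was -0.67 (adjusted p = 0.678, Fisher's exact test). For ENSMUSG00000116048.1 it stayed at 0.93 (adjusted p = 2.0e-05, Fisher's exact test). The split by identifier was an alternative chosen after seeing the data. Partners called fell to 0 under both alternatives tried. Leading model calls were 0 among annotated transcripts, where 5 septins were tested and Sept7 could not be, and 2, with Sept2 added, for models with at least 2 reads. Unspliced calls stayed at 0. The unannotated spliced share of 31.1% ranged from 22.9 to 39.4% with 1 library left out, and was 37.1% with 1 class per chain and 20.7% without Sept7, both chosen after seeing the data. Sites with a choice numbered 7 on annotated transcripts, where neither unannotated choices nor reads on models of the other classes count. Some sites with 2 annotated partners were lost too, such as the Sept4 cassette. Where no construction shows a cause, the cause was not tested. Depth limits the splice choices of Sept9, Sept6, Sept11 and Sept3 and those from the downstream first exon of Sept4, which rest on 6 to 83 reads at a site. No paired analysis was possible because there is 1 group.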
